A study of Drosophila melanogaster and Drosophila ananassae and Drosophila pseudoobscura with 52 samples.

Results

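Autosomal A-to-I editing sites with a single close neighbour were described across 6 Drosophila species, the 2 sexes and 8 inbred lines of D.mel. A site was a member when it lay off the X chromosome and exactly 1 other listed site of its chromosome lay within 50 bp of it, counted over all listed sites, whether or not an editing level was given for them. This rule selected 386 of the 2380 listed sites, and of the 1903 autosomal sites it left out 937 with 0 neighbours and 580 with 2 or more. The rule used positions only and no editing level. Sites are named by chromosome and position in dm3, the D.mel genome build of the submitters' processing notes. No gene annotation of that build was used here, so the genes, exons and strands of the sites are not given.

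Editing levels, the share of reads carrying the edited base at a site, had been measured in RNA of whole bodies of 5 day old adults by mmPCR-seq, a microfluidic multiplex PCR of chosen cDNA loci followed by sequencing. The species arm held 24 mmPCR-seq libraries, of males and females of D.mel (stock 14021-0231.69), D.sim (14021-0251.011), D.yak (14021-0261.01), D.ana (14024-0371.13), D.pse (14011-0121.94) and D.vir (15010-1051.09), and 12 further libraries came from targeted sequencing with additional primers for the 3 distant ones (D.ana, D.pse, D.vir). Every species was thus represented by a single laboratory stock, and the tables give 1 pooled level per species and sex, without an error. The strain arm held 16 libraries of males of the DGRP (Drosophila Genetic Reference Panel) inbred lines 26, 325, 352, 441, 721, 774, 786 and 804, with 2 libraries a line. No mutant or treatment was included, and each library was made from a pool of flies. Line 774 stood apart in its replicate error: its 2 libraries differed by more than 10 percentage points at 12 of 92 members (13%), against 0 to 4 members in the other lines. Its replicate 2 also had the lowest median level over the 83 members measured in every library (7.60%, against 8.30 to 13.1% in the other 15 libraries). Called members at which line 774 was an extreme are given with and without it.

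A-to-I editing is the deamination of adenosine to inosine in double-stranded RNA by ADAR enzymes. Flies carry a single Adar gene, which is expressed mainly in the nervous system, and many of its targets encode ion channels and proteins of synaptic transmission. Ribosomes and reverse transcriptase read inosine as guanosine, so a site in a coding sequence can change an amino acid, and edited adenosines often lie close together because they share an RNA duplex.

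The members reached the tables through the primers of the assay, and the amplicons on which several results below rest are identified here by their D.mel primers, forward before reverse, written 5′ to 3′ in lower case throughout because no base within them is singled out. For 70 of the 78 pairs with levels at both sites a D.mel primer pair is listed under at least 1 of the sites, and for 3 of all mutual pairs under both.
2L 13187842, D.mel forward: gcagcatgtattggctgact
2L 13187842, D.mel reverse: cttagcacgcggagcatatc
2L 3762337, D.mel forward: gtcaactccggccagtc
2L 3762337, D.mel reverse: gcagcagtaggttcttcctct
2L 3503650, D.mel forward: gatcagcatgtgagcactct
2L 3503650, D.mel reverse: caaagtggccgctgttcc
2L 14083516, D.mel forward: gtagcttcatccgttgtgtc
2L 14083516, D.mel reverse: aacgtcggagagtatctggt
3R 20501385, D.mel forward: ctggagaactctggcgatcc
3R 20501385, D.mel reverse: ccgacgagttcaattatctcc
For 3R 23499011, whose level differed widely between near and distant species, the primers listed for D.ana and D.vir in the second round are shown beside those of D.mel. None is listed under this site for D.pse, and which primers gave the levels of the distant species is not given.
3R 23499011, D.mel forward: gctgggaatttcgcctact
3R 23499011, D.mel reverse: agcagtgtgggcataatcata
3R 23499011, D.ana forward: tgcttactcggcggatattc
3R 23499011, D.ana reverse: aaggtttccggtttagcagat
3R 23499011, D.vir forward: ttgatagcccgcatgtttga
3R 23499011, D.vir reverse: tagaactgttttacggcgtact

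Most members formed closed pairs. Of the 386 members, 360 made up 180 mutual pairs, in which each site was the other's only neighbour, and the remaining 26 had a neighbour with a further neighbour of its own. The 2 sites of a pair were a median of 8 bp apart (quartiles 2 and 16 bp). The most frequent spacing was 1 bp, that is, directly adjacent bases, in 39 pairs, and the next was 12 bp in 13 pairs, while 104 pairs (57.8%) lay within 10 bp. At the limit of the rule, 7 autosomal sites had their nearest listed site at 50 bp and 11 had it at 51 bp. The members were spread over 2R (116 sites), 3R (95), 3L (85), 2L (81) and 4 (9).

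**Figure D1:**
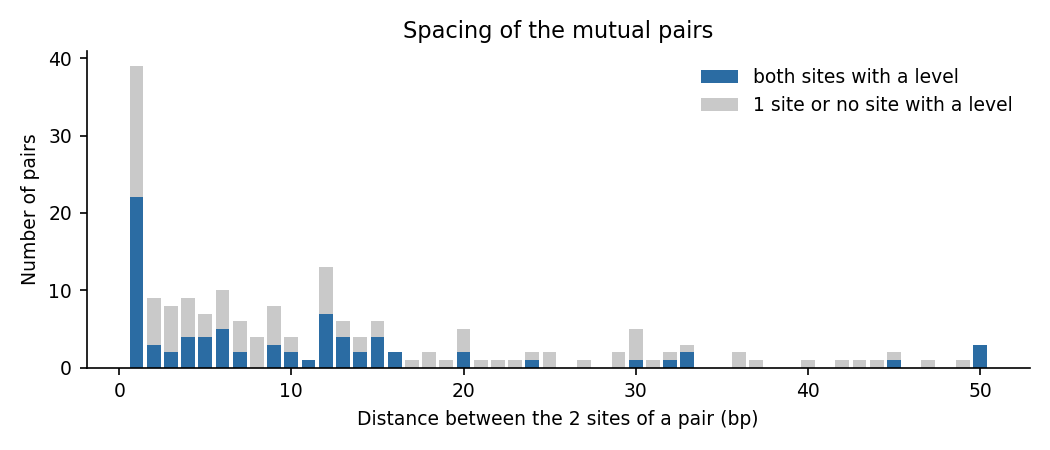
Number of mutual pairs (y axis) at each distance between the 2 sites in bp (x axis), with pairs that have a level at both sites in blue and the others in grey. The bar at 1 bp holds 39 pairs and the bar at 12 bp holds 13.

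A level was given for 181 members (46.9%) in at least 1 column, against 41.1% of all listed sites, 27.2% of autosomal sites with 0 neighbours and 58.6% of those with 2 or more. The other 205 members had no level anywhere. Of the measured members, 174 had a level in the species tables and 121 in the table of lines, and 78 mutual pairs had a level at both sites. The primers had been designed for loci edited in adult D.mel, so the measured members are a selection of the listed ones.

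The 2 sites of a pair were often edited to very different levels, and which of them was higher was mostly the same in every library. In the 35 mutual pairs measured at both sites in all 16 DGRP libraries, the means over the libraries differed by a median of 14.9 percentage points and at most by 76.3. The same site was the higher in all 16 libraries in 29 pairs, which was the site at the higher coordinate in 14 pairs and at the lower coordinate in 15. Both means were at 10% or more in 6 pairs, whereas in 8 pairs 1 site was at 10% or more and the other under 2%. The difference within pairs had a median of 14.4 points in the 11 pairs of adjacent bases, 18.3 points in the 13 pairs at 2 to 10 bp and 14.9 points in the 11 pairs at 11 to 50 bp. The sites of a pair come from the same libraries and are not replicates of each other.

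**Figure D2:**
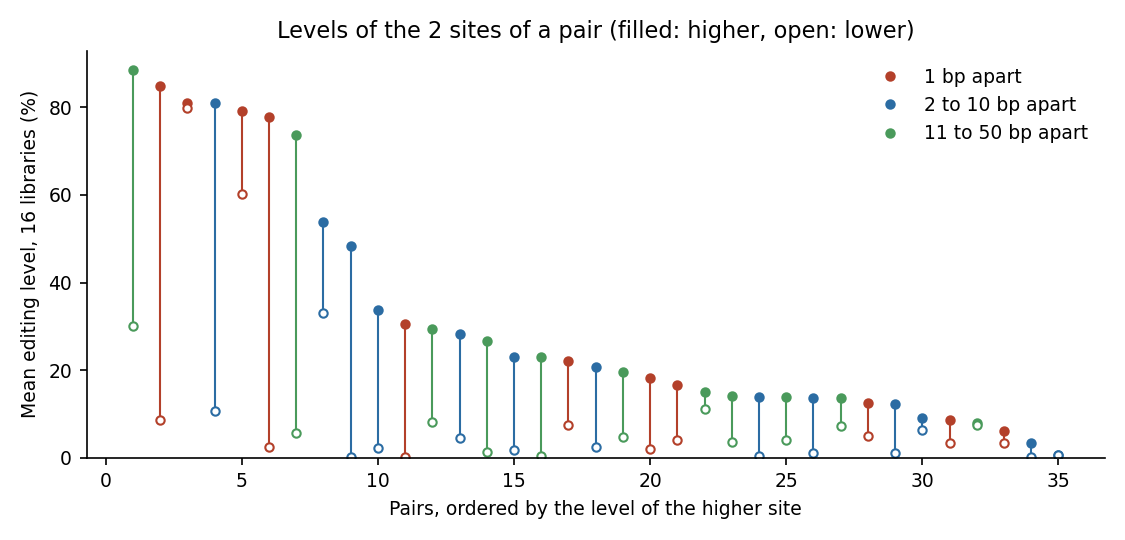
Mean editing level over the 16 DGRP libraries (y axis, %) of the 2 sites of each of the 35 mutual pairs measured in all of them (x axis, ordered by the higher site), with a line joining the sites of a pair and colours for their distance. The lines span from 0.15 to 76.3 percentage points, and only 6 pairs have both sites at 10% or more.

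The pair with the highest levels at both sites was that of the adjacent bases 2L 14083516 and 2L 14083517. In lines 26, 325, 352, 441, 721, 774, 786 and 804, in this order, the libraries gave 73.1 and 79.0%, 86.4 and 83.7%, 78.0 and 75.1%, 78.0 and 81.2%, 76.4 and 78.3%, 80 and 80.8%, 82.1 and 80.7%, and 80 and 84.6% at 2L 14083516. Its neighbour ranged from 76.3 to 87.3% over the same libraries. The ranges of the 2 sites overlapped for the most part, and the higher one was 2L 14083517 in 13 libraries and 2L 14083516 in 2. Adjacent bases were also edited to high levels at 3R 15579485 (mean 60.2%, 55.3 to 65.3% over the 16 libraries) and 3R 15579486 (mean 79.1%, 72.2 to 84.1%), but there the ranges of the 2 sites did not overlap. At 3L 9148285 (mean 30.0%) and 3L 9148318 (mean 88.5%), 33 bp apart, the lowest library of the higher site (84.9%) lay far above the highest library of the lower site (33.6%). None of these 6 sites passed the test for a strain effect described below (adjusted p from 0.112 to 0.822).

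The opposite arrangement, a strongly edited base beside a weakly edited one, was seen in other pairs. At 3R 23499010 and 3R 23499011 the means were 8.53% (1.70 to 15.5%) and 84.8% (75.2 to 97.4%). At 3R 20501385 and 3R 20501386 they were 77.8% (55.9 to 90.6%) and 2.40% (1.5 to 4.10%). At a distance of 7 bp, 3L 9156017 was at 48.3% (44.3 to 55.6%) and 3L 9156024 at 0.12% (0.00 to 0.40%). In each of these 3 pairs every library of the higher site lay above every library of the lower one.

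The order within pairs was also mostly kept between species. Among the 31 mutual pairs with both levels and an edited site (2% or more) in at least 3 species, the same site was the higher in every such column in 25 and the order changed in 6. In D.mel males, where 50 pairs had both levels, the higher site had a median of 14.5% and the lower 3.40%.

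Across species, the median level over all measured members was highest in D.mel and D.sim and lowest in D.vir. Among members at 2% or more, D.vir was still the lowest, but D.mel and D.sim were not the highest. In males the median over members was 5.70% for D.mel (127 members), 8.20% for D.sim (101), 3.45% for D.yak (74), 1.90% for D.ana (79), 1.5% for D.pse (73) and 0.55% for D.vir (62). The same medians over all measured sites were 8.48, 7.45, 5.00, 2.50, 1.10 and 0.65%, so the median of the members was below that of all sites in D.mel, D.yak, D.ana and D.vir and above it in D.sim and D.pse. In females the medians over members were 2.50, 2.72, 2.35, 1.40, 1.05 and 0.70% in the same order of species. These medians carry no error, since each species and sex is a single pooled value, and they cover different members in each species. The assayed loci had also been chosen for editing in adult D.mel, and how far this choice shaped the order of the species was not tested. With only members at 2% or more the male medians were 12.2 (D.mel), 13.2 (D.sim), 15.6 (D.yak), 22.4 (D.ana), 21.8 (D.pse) and 11.4% (D.vir). A site whose base is no longer an adenosine in a species would also be read at or near 0, and genomic sequence was not analysed here.

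The members at 10% or more in at least 1 sex of D.mel were followed into the other species. Of those measured there, 37 of 44 were again at 10% or more for D.sim, 23 of 35 for D.yak, 16 of 25 for D.ana, 15 of 22 for D.pse and 8 of 22 for D.vir. Those under 1.5% in every measured sex numbered 1, 4, 7, 7 and 9, respectively. The shares of members at 10% or more were 84.1, 65.7, 64, 68.2 and 36.4%, against 77.9, 75.4, 63.2, 60.9 and 50% over all sites, so they lay on either side of the background. Under 1.5% the shares over all sites were 7.59, 10.3, 26.4, 28.8 and 35.1%, and those of the members 2.27, 11.4, 28, 31.8 and 40.9%.

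A level in all 6 species was given for 35 members, and 10 of these (28.6%) were edited at 2% or more in at least 1 sex of every species, near the 27.9% of all sites measured in 6 species. At a threshold of 5% the count was 6 of 35 (17.1%, against 21.4% of all sites), and by males alone it was 4 of the 22 members with 6 male levels (18.2%, against 24.5%). The 35 members covered all degrees, with 2 edited in no species, 6 in 1, 2 in 2, 9 in 3, 2 in 4 and 4 in 5. The 2 of them with the highest level in D.mel males both had a weakly edited neighbour. Site 3R 20501385 had male levels of 88.7% (D.mel), 54.7% (D.sim), 88.8% (D.yak), 88.5% (D.ana) and 73.7% (D.pse) and was at 94.3% in females of D.vir, while its adjacent base did not exceed 3.00% in any column. Site 3L 2925255 ranged from 65.6 to 82.2% in D.mel, D.sim, D.yak, D.ana and D.pse of both sexes and was at 99.1% in D.vir females, with its neighbour 32 bp away at 0.40 to 8.20%. Site 3R 14796414 was at 12.9 to 23.2% in all 12 columns, whereas its neighbour 13 bp away ranged from 0.50 to 6.35%. At 2L 18182220 the males gave 20.9% (D.mel), 31.6% (D.sim), 4.20% (D.yak), 42.3% (D.ana), 17.0% (D.pse) and 4.75% (D.vir), so that the level did not follow the distance from D.mel.

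**Figure D3:**
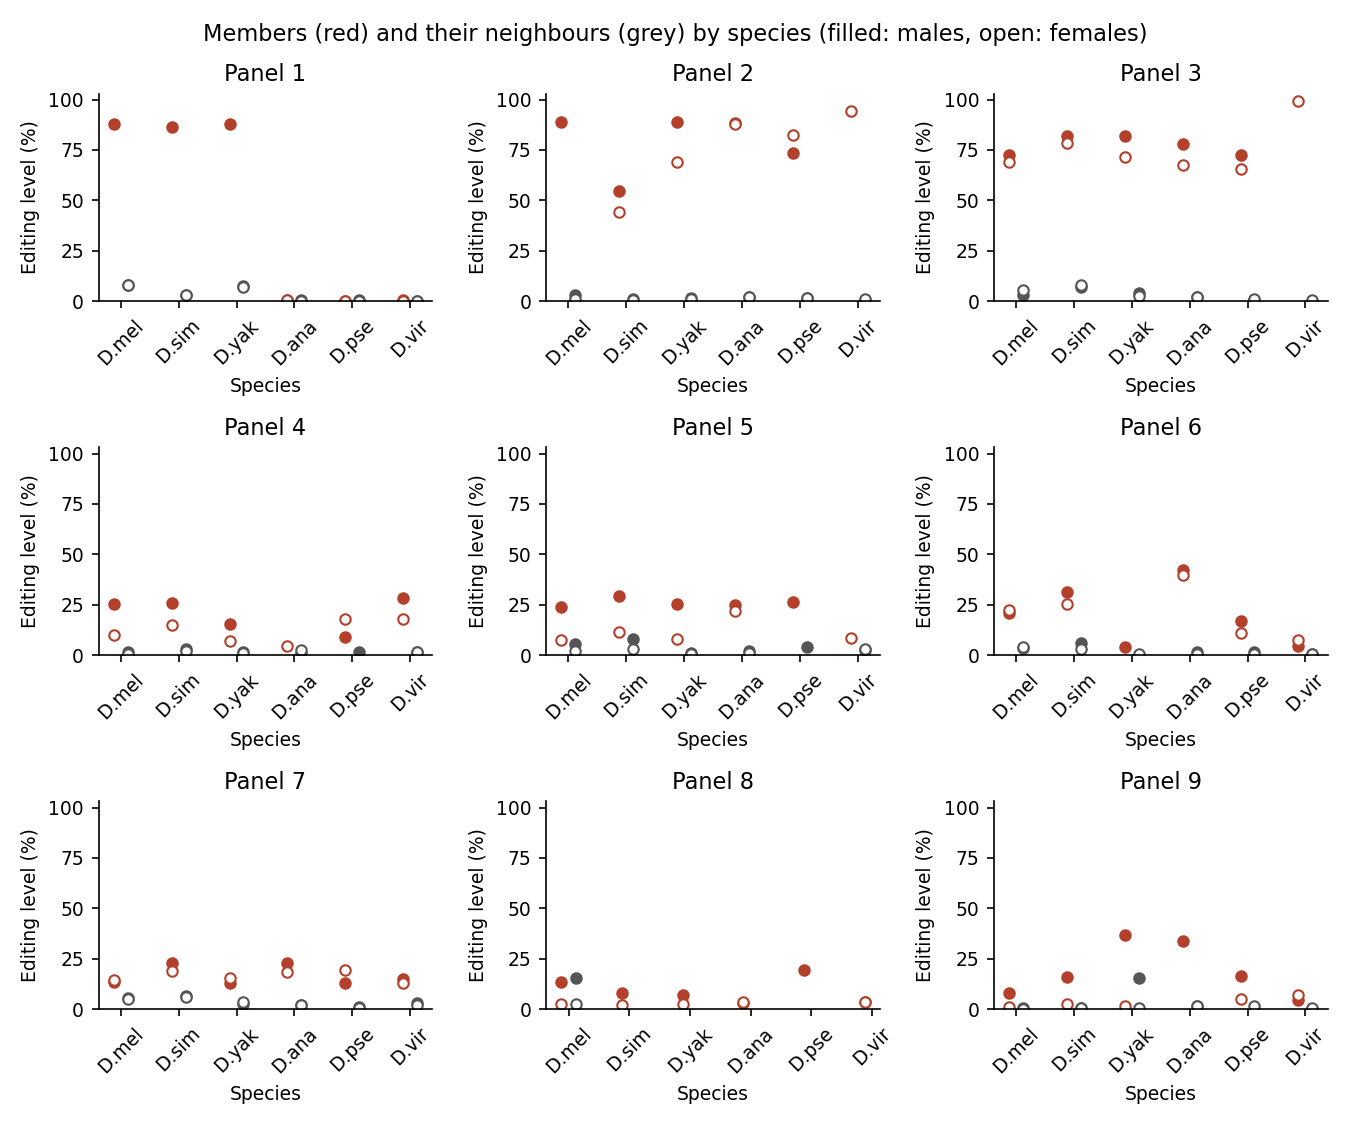
Editing level (y axis, %) in the 6 species (x axis) of 9 members (red) and of the neighbour of each (grey), for males (filled) and females (open); panel 1 shows 3R 23499011, and panels 2 to 9 show, in this order, 3R 20501385, 3L 2925255, 2R 9781439, 3L 9662076, 2L 18182220, 3R 14796414, 2R 3389704 and 3L 16104689, which were edited in all 6 species. In panel 1 the member is at 86.2 to 88.1% in males of D.mel, D.sim and D.yak and at 0.40% or less in the other species, and in panel 2 it stays at 44.0% or more wherever it was measured.

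Some members were edited in D.mel and close to 0 in other species. Site 3R 23499011 was at 87.8% in males of D.mel, 86.2% in D.sim and 88.1% in D.yak, and at 0.40, 0.35 and 0.40% in those of the 3 distant species. The adjacent base, 3R 23499010, showed the same division at a low level, with 8.0, 3.00 and 7.80% in the first 3 species and 0.30 to 0.40% in males of the others. Site 3R 16819563 was at 16.7% in D.mel males and 14.6% in D.sim males, but at 2.15% in D.yak and at 0.35 to 0.55% in males of the 3 distant species. At 2L 3503636 the D.mel (15.1%) and D.sim males (14.3%) stood against D.pse (0.50%) and D.vir males (0.30%). In all, 9 of the 40 members at 10% or more in D.mel and measured in at least 2 other species were under 1.5% in 2 or more of them (22.5%, against 16.4% of all such sites).

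In the other direction, 6 of the 28 members under 1.5% in D.mel and measured elsewhere were at 10% or more in another species (21.4%, against 14.4% of all such sites). Site 2R 9697520 was at 31.9% in males and 42.4% in females of D.pse and at 0.60% or less in every other species measured. At 2R 9781368 the D.vir males (17.4%) and females (13.1%) stood alone, since the other 10 columns did not exceed 0.30%. Site 2L 283707 reached 38.1 and 12.3% in the males and females of D.sim, against 1.25 and 0.45% in those of D.mel. At 3L 16104687 the level of D.yak males was 15.7% and no other column exceeded 1.75%.

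Male levels exceeded female levels at most members in 5 of the 6 species, and at most edited members in all 6. For D.mel, males were higher at 89 of 123 members (72.4%, against 77.0% of all sites). The counts were 80 of 92 for D.sim (87.0%, against 74.7%), 50 of 69 for D.yak (72.5%, against 68.5%), 48 of 72 for D.ana (66.7%, against 59.8%), 36 of 58 for D.pse (62.1%, against 52.5%) and 19 of 45 for D.vir (42.2%, against 39.3%). The median difference between the sexes was 1.65 (D.mel), 2.92 (D.sim), 0.60 (D.yak), 0.45 (D.ana), 0.12 (D.pse) and 0.00 percentage points (D.vir). Males were higher by 10 points or more at 18 members in D.mel (14.6%, against 17.8% of all sites), at 18 in D.sim (19.6%, against 14%), at 13 in D.yak (18.8%, against 15.4%), at 3 in D.ana (4.17%, against 4.78%), at 6 in D.pse (10.3%, against 5.07%) and at 2 in D.vir (4.44%, against 3.32%). Females were higher by that much at 1 member in D.yak (1.45%), at 2 in D.pse (3.45%) and at 0 in the other 4 species, while the shares of all sites from D.mel to D.vir were 0.693, 0.717, 1.96, 1.97, 3.26 and 1.90%. With 1 pooled value per sex, the difference at a single member has no replicate check. In whole bodies, more editing per transcript and a larger share of transcripts from an editing tissue cannot be told apart.

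The largest differences in D.mel were those of 2R 19938500 (22.4% in males and 2.50% in females), 2L 11796346 (21.9 and 2.95%), 3L 16708947 (19.9 and 2.05%), 3R 4212460 (33.9 and 17.2%) and 3R 5595147 (22.4 and 5.70%). At 4 of these 5 sites D.sim was measured in both sexes and males were again higher, with 33.5 against 11.7% at 2R 19938500, 22.6 against 2.00% at 2L 11796346, 9.65 against 4.05% at 3R 4212460 and 28.2 against 8.10% at 3R 5595147. In D.yak, 2L 11796346 was at 0.35% in males and 0.25% in females, so it was not edited there in either sex. Among members higher in females, the largest difference in D.mel was only that from 7.15% in males to 13% in females at 3L 9144935, followed by 74.6 and 80.3% at 2L 3762337.

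The widest gap between the sexes in any species among the members named here was at 3L 16104689. Male and female levels were 8.05 and 1.30% for D.mel, 16 and 2.65% for D.sim, 36.9 and 1.80% for D.yak, 16.4 and 5.20% for D.pse, and 4.60 and 7.30% for D.vir, so that the order of the sexes turned in D.vir. Of the 15 members with both sexes in all 6 species, 1 was higher in males throughout, against 5.56% of all such sites. That member was 2R 4772882, at 12.2, 18 and 16.6% in males of D.mel, D.sim and D.yak and at 11.6, 15.9 and 12.9% in females, and it was at 0.40% or less in both sexes of the other 3 species, where its order carries no weight.

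**Figure D4:**
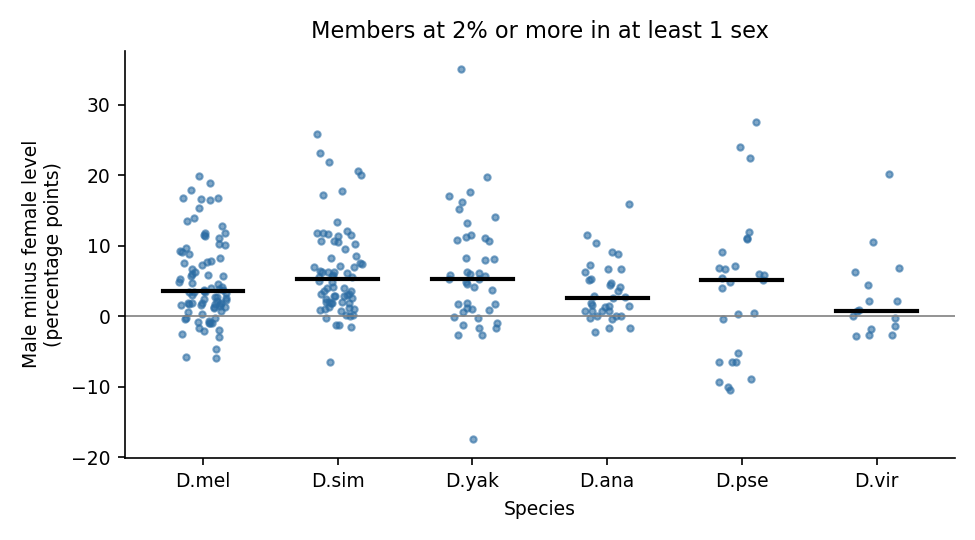
Male minus female editing level (y axis, percentage points) in each species (x axis) at members at 2% or more in at least 1 sex; each point is a member and the black bars are medians. From D.mel to D.vir the medians are 3.55, 5.32, 5.35, 2.60, 5.15 and 0.83. Over all such sites, not shown, they are 3.90, 3.92, 2.55, 1.85, 0.80 and 0.05.

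Differences between the DGRP lines were tested at the 74 members that had 16 levels averaging at least 1%, with limma's moderated F test over 8 lines, fitted on all 478 such sites and adjusted over all of them by the Benjamini-Hochberg method. A strain effect was called at an adjusted p under 0.05. The test set the differences between line means against the spread between the 2 libraries of a line, pooled over lines and moderated over sites. Of the members, 17 were called (23.0%), where 19.2% of all sites tested were, so the share was near the background. It was 22.3% of autosomal sites with 0 neighbours, 23.3% of those with 2 or more and 8.26% of sites of the X chromosome. The means of the lines at a called member spanned a median of 13.5 percentage points, and at a member not called 5.75. Without line 325, 11 members were called (14.9%, against 16.3% of all sites).

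The strongest calls were at sites where lines fell into separate levels. At 2L 13187842 the libraries gave 21.5 and 19.7% in line 26, 23.4 and 16.3% in line 352, 21.7 and 18% in line 441, and 16.2 and 17.0% in line 721. In lines 325, 774, 786 and 804 none of the 8 libraries exceeded 0.60%. The 2 sets of lines did not overlap (range of line means 20.6 percentage points, adjusted p = 5.03e-08). Without line 774, the lowest of them, the range was 20.5 points (adjusted p = 1.56e-07). The D.mel stock of the species arm, at 1.00% in males and 0.40% in females, was like the second set. Its neighbour 2L 13187884, 42 bp away, had no level.

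At 2L 3762337 the libraries gave 66.5 and 72.4% in line 26, 45.8 and 43.5% in line 325, 43.3 and 55.9% in line 352, 77.3 and 77.0% in line 786, and 44.0 and 43.3% in line 804. Lines 441 (4.40 and 2.00%), 721 (2.20 and 3.70%) and 774 (2.00 and 1.90%) were near 0, so this site was strongly edited in 5 lines and nearly unedited in 3 (range 75.2 points, adjusted p = 8.96e-08). Without line 774 the range was 74.2 points (adjusted p = 5.93e-07). The neighbour 2L 3762371, 34 bp away and itself not a member because it has a second neighbour, was at 11.7 to 28.1% in the libraries of lines 441 and 721 and at 13.7 and 2.20% in line 774, and was not called (adjusted p = 0.112). Whether the adenosine itself differs between the lines was not tested, since their genotypes were not analysed here.

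**Figure D5:**
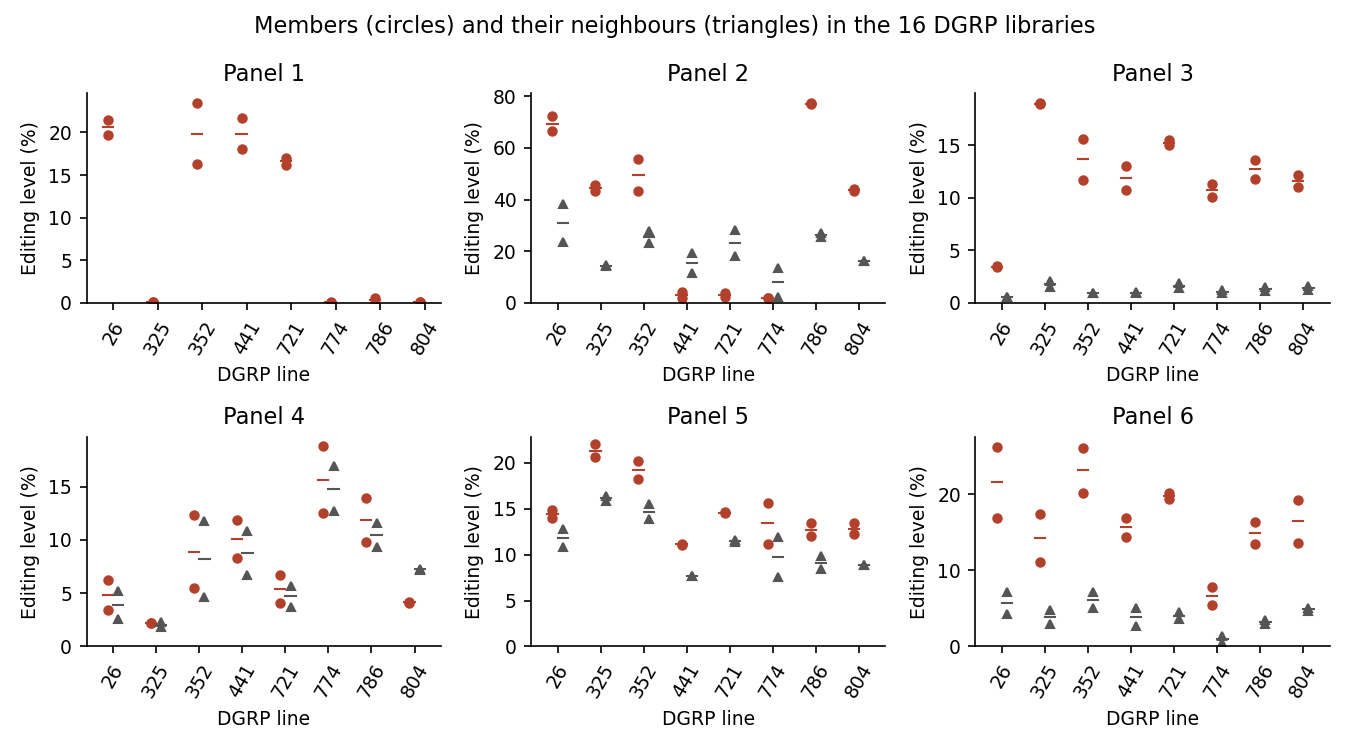
Editing level (y axis, %) in each of the 2 libraries of each DGRP line (x axis) at 6 called members (red circles) and their neighbours (grey triangles), with bars at the mean of each line; panels 1 to 3 show the members with the smallest adjusted p, 2L 13187842 (whose neighbour has no level), 2L 3762337 and 2R 2620725, and panels 4 to 6 a site of each pair called at both sites, 2L 3503650, 4 787813 and 3L 2134649. In panel 1 no library of lines 325, 774, 786 and 804 exceeds 0.60%, and in panel 4 the member and its neighbour are lowest in line 325 and highest in line 774.

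Other called members differed between lines by degree. At 3R 20501385, the highly edited base beside one at 2.40%, line 774 gave 68.6 and 55.9% and line 786 gave 90.6 and 90.3%, with 70.0 to 87.9% in the other lines (range 28.2 points, adjusted p = 0.00120). Without line 774 the range was 18.5 points and the call remained (adjusted p = 0.00118). Its adjacent base was at 1.5 to 4.10% and was not called (adjusted p = 0.379). At 3R 5595147 lines 26 (18.5 and 15.3%), 352 (19.4 and 17.4%) and 774 (20.8 and 22.2%) lay below line 804 (26.5 and 22.7%), and lines 325 (36.4 and 30.2%), 441 (34.3 and 28.6%), 721 (31.3 and 29.1%) and 786 (39.4 and 35.9%) lay above it (range 20.8 points, adjusted p = 0.00174).

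Line 26 stood apart at some of the called members. It was low at 2R 2620725, with 3.40 and 3.50% against 10.1 to 19.0% in the other 14 libraries (adjusted p = 9.59e-05), and at 3L 2665990, with 18.5 and 11.8% against 28.0 to 41.7% (adjusted p = 0.00957). Without line 26 these calls were lost (adjusted p = 0.0754 and 0.405). At 3L 5739872 line 325 was lowest, with 14.3 and 15.4%, and line 352 highest, with 29.8 and 33.5% (adjusted p = 0.00162). This call remained without line 325 (adjusted p = 0.0254). At 3R 20533145 line 325 was highest, with 57.1 and 57.5%, and line 352 gave 45.5 and 43.1% (adjusted p = 0.0215, lost without line 325 at 0.0756). Line 325 did not stand apart there, since line 786 had a mean of 56.25% and the call was also lost without line 786.

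In 29 mutual pairs both sites were tested, and both were called in 3 pairs, 1 site in 4 and no site in 22. In each of the 3 pairs called at both sites, the sites had the same lowest and the same highest line. At 2L 3503650 the libraries of line 325 gave 2.20 and 2.20% and those of line 774 gave 18.8 and 12.5%, and at 2L 3503636, 14 bp away, they gave 2.30 and 1.80% and 16.9 and 12.7% (adjusted p = 0.0109 and 0.0186). Without line 774 line 786 was the highest at both sites and the calls remained (adjusted p = 0.0210 and 0.0410), while without line 325 they were lost (0.0724 and 0.109). On chromosome 4, the libraries of line 441 gave 11.1 and 11.2% and those of line 325 gave 22.1 and 20.6% at 4 787813, and 7.70 and 7.70% and 15.9 and 16.4% at 4 787825, 12 bp away (adjusted p = 0.0132 and 0.0191, lost without line 325 at 0.0954 and 0.0912). The third pair, the adjacent bases 3L 2134648 and 3L 2134649, was lowest in line 774, with 1.40 and 0.50% and with 7.80 and 5.40%, and highest in line 352, with 5.00 and 7.20% and with 20.2 and 26.1% (adjusted p = 0.0255 and 0.0236). Neither of these 2 calls remained without line 774 (adjusted p = 0.358 and 0.281). The sites of a pair were measured in the same libraries, and for the third pair a D.mel primer pair is listed under each site.

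At the remaining 3 called members the range was 8.35 points at 2R 4771195, 6.70 at 3R 14796414 and 2.70 at 3R 4067701. The call at 2R 4771195 was lost without line 325 (adjusted p = 0.0751) or line 26 (0.0821), and that at 3R 4067701 on untransformed levels (adjusted p = 0.143). At 3R 14796414, the member at 12.9 to 23.2% in all 6 species, lines 352 (17.6 and 18.6%) and 441 (18.3 and 17.1%) were above the 10.3 to 15.4% of the other lines (adjusted p = 0.0351), and this call was lost under 17 of 28 other settings. Over the 17 called members, line 774 was the lowest at 5 and line 352 the highest at 5. Over all 74 members tested, line 774 was the lowest at 16 and line 352 the highest at 16.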

How the data were processed

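Reads were demultiplexed by the authors (FASTX Toolkit) and mapped with TopHat, each species to its own genome, and levels were kept at a coverage of at least 50 reads. The authors deposited each level as a fraction between 0 and 1, printed here in percent, with no normalization between samples. For their species analyses the authors kept mmPCR-seq levels whose replicates differed by no more than 10%, and used RNA-seq where a site had no such level. Whether the deposited species tables carry these choices, and how replicates and sequencing rounds were merged into a single value, is not given in the sources used here. No read counts were used, so the depth behind a value is unknown and no binomial interval was computed. In the table of lines, 16 positions held the letters NA where digits belong and were repaired, which gave every table the same list of 2380 sites, and 0 columns were left unassigned. Both columns of line 721 carry the same replicate number and may be technical repeats; they are called libraries a and b.

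The strain test used limma 3.58.1 in R 4.3.3 on log2((level + 0.01)/(1 - level + 0.01)), with levels as fractions. Other tables were made with pandas 2.3.3 in Python 3.11.15. Named sites were chosen by fixed rules: up to 10 called members with the largest range of line means and replicates within 10 points in every line, the 6 mutual pairs with the highest lower site and the 6 with the largest difference in the lines, up to 8 members edited in all 6 species, the 5 with the largest difference between the sexes of D.mel in each direction, and up to 5 gained or lost relative to D.mel. The called sites 2R 4771195, 3R 4067701 and 3L 2134648 and the site 2R 4772882 were named after their values were seen, beside the second sites of pairs. The members and lists were chosen with earlier results of these data known. Lists of ion channel, receptor and synaptic genes could not be applied without an annotation of the build.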

Additional observations from a re-analysis of the deposited data

How the results depend on the processing

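The count of members with a strain effect was 17. It was 11 without line 325 and 33 without replicate 1 of line 774, and leaving out each library in turn gave 12 to 33. Under other offsets, filters, scales and left-out lines it stayed between 13 and 20. A fit with the replicate number as a block, with line 721 left out, was chosen after seeing the data. It called 16 members (21.6%, against 18.6% of all sites), 13 of them shared with the main fit. The calls at 2R 4771195, 3R 4067701, 3L 2134648 and 3L 2134649 were lost (adjusted p from 0.0517 to 0.0715). Between lines, deviations of same-numbered libraries correlated at -0.13 to 0.31 (median 0.12), above 0.1 in 12 of 21 pairs of lines. Whether same-numbered libraries share a batch was not tested, and the main fit does not use the numbers. With only members at 2% or more the median levels were 12.2% (D.mel), 13.2% (D.sim), 15.6% (D.yak), 22.4% (D.ana), 21.8% (D.pse) and 11.4% (D.vir) in males and 8.90, 10.2, 11.7, 18.5, 20.9 and 7.38% in females, since low members were removed. The medians between the sexes were then 3.55, 5.32, 5.35, 2.60 and 5.15 points in D.mel, D.sim, D.yak, D.ana and D.pse. Over all sites at 2% or more in at least 1 sex they were 3.90, 3.92, 2.55, 1.85 and 0.80 points. Within pairs with a site at 2% or more, the median difference was 11.4 points in D.mel males and 5.10 in females, against 8.45 and 2.80 over all pairs. Members edited in all 6 species numbered 6 of 35 at a threshold of 5%, 4 of 22 in males alone and 3 of 22 in females alone (13.6%, against 16.2% of all sites), against 10 of 35. Unknown depth limits values near 0, and the species values have no replicate error.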

Other observations

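The adjacent members 3L 9144935 and 3L 9144936 were far higher in a single library than in any other. Library a of line 721 gave 66.4% at 3L 9144935 and 42.0% at 3L 9144936, whereas library b of the same line gave 11.4 and 0.50%. The other 14 libraries gave 0.50 to 19.4% at the first site and 0.50 to 7.30% at the second. Neither site was called in the test for a strain effect (adjusted p = 0.254 and 0.752). With the 2 libraries of line 721 this far apart, that test could not exclude a difference between lines. Leaving out a library moved the range of line means from 35.9 points to between 12.3 and 63.4 points at 3L 9144935.

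Replicate 2 of line 774 was the lowest or highest of the 16 libraries at several strongly contrasting pairs. It gave 97.4% at 3R 23499011, where the other libraries reached at most 91.0%, and 1.70% at the adjacent 3R 23499010, the lowest of all. At 3L 2925255 it gave 61.1% and at 3L 2925287 0.40%, both the lowest of the 16 libraries, while replicate 1 of the line gave 76.3 and 5.50%.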
